A study of Mus musculus with 6 samples.

Results

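The 10 genes described here encode 3 thrombospondins (Thbs1, Thbs2 and Thbs3) and 7 other matricellular or matrix-associated proteins (Sparc, Spp1, Tnc, Postn, Tgfbi, Fn1 and Vcan), chosen by gene symbol, and they are 10 of the 17463 gene entries in the deposited table. They were measured by RNA sequencing in MLECs, endothelial cells isolated from mouse lung, cultured in endothelial growth medium with serum and given no treatment. The libraries of both groups came from mice described as Hey1 iEC-KO, that is, carrying an endothelial knockout of the Notch-induced transcriptional repressor HEY1. One group also carried a HEY1-WT knock-in and the other a HEY1-3KR knock-in (HEY1-WT KI and HEY1-3KR KI, 3 libraries each). The title of the series concerns SUMOylation of HEY1. The sources used here give neither the animals' age, the driver of the endothelial alleles, nor whether libraries sharing a genotype stem from different mice, so the spread behind each p-value is that of libraries and may be technical. In bulk RNA, fewer cells of a type and less RNA per cell cannot be told apart.

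Matricellular proteins are secreted into the extracellular matrix, where they modulate how cells adhere, migrate and respond to growth factors more than they bear load. Thrombospondin-1 and thrombospondin-2 restrain vessel growth, acting through the receptors CD36 and CD47, and thrombospondin-1 can also release TGF-beta from its latent complex. Tenascin-C, periostin and osteopontin (the product of Spp1) are known for their induction in injured tissue, and fibronectin and versican form parts of the provisional matrix around growing vessels.

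Of the 10 genes, 6 were higher in HEY1-3KR KI (Tgfbi, Thbs1, Tnc, Postn, Sparc and Spp1), Thbs2 was lower, and Thbs3, Fn1 and Vcan did not pass the test (limma over all genes, Benjamini-Hochberg adjusted p below 0.05). Changes were common in these libraries. Of the 11432 genes tested, 53.2% passed, 29.9% higher and 23.4% lower, so 7 of 10 called genes is a count to be read against that share. The sizes ranged widely. Tgfbi was 5.43-fold, Thbs1 2.94-fold and Tnc 2.44-fold higher by FPKM (fragments by kilobase of transcript length and by the library's mapped total), whereas Sparc and Spp1 were 1.11-fold and 1.08-fold higher. A difference of at least 1.5-fold by FPKM was found for 5 of the 10 genes and for 16.1% of tested genes. The median absolute log2 fold change was 0.43 over the 10 genes and 0.17 over all tested genes, and the signed medians were 0.14 and 0.02. The genes were chosen with earlier results of these data known, so the comparisons with all tested genes are a description. The values of the HEY1-3KR KI and HEY1-WT KI libraries did not overlap for 6 genes that were higher and for Thbs2, while 34.1% of tested genes were higher and 27.0% lower without overlap, 61.1% in all. Fold changes on a log2 scale are of FPKM + 1, HEY1-3KR KI minus HEY1-WT KI, and understate the change of low genes.

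The 250 bases before and 50 bases from the annotated start site were read from RefSeq (GRCm38.p6) for the 8 of 10 genes that have an entry there, in 11 windows. Thbs1 and Fn1 have none. Printed below are the 3 genes of largest rise that have a window and Thbs2, the gene that fell, so that the start regions of genes that moved in opposite directions can be set side by side. Bases are in the direction of transcription, and capitals mark CACGTG and CACGCG, letters that HEY proteins are known to bind, TATAAA, the TATA box, TGANTCA, the AP-1 site, and CAGACA, a SMAD site, each on either strand. Tgfbi lies at chr13:56609336-56609635 on the + strand, Tnc at chr4:64046887-64047186 on the - strand, Postn at chr3:54360857-54361156 on the + strand and Thbs2 at chr17:14694213-14694512 on the - strand. For Tnc and Postn, which have 2 windows each, the second is shown. In both genes the first window is at the start site that bounds the gene coordinates given below, and the second is at a site further downstream. The second windows held more of the letters searched. The first Tnc window held TATAAA and CAGACA and no CACGCG. The first Postn window held none of the letters searched.
Tgfbi: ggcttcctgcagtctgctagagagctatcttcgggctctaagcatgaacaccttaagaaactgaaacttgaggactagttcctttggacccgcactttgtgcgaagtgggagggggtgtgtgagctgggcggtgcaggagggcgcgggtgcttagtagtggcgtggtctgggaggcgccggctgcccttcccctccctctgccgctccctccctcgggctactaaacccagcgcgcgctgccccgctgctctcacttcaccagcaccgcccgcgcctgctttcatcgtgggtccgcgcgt
Tnc: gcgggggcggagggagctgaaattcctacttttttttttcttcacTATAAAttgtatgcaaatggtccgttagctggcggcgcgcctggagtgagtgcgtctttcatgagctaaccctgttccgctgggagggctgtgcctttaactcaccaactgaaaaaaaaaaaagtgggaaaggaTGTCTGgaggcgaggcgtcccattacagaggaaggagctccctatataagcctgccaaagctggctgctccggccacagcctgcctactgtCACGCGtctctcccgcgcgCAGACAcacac
Postn: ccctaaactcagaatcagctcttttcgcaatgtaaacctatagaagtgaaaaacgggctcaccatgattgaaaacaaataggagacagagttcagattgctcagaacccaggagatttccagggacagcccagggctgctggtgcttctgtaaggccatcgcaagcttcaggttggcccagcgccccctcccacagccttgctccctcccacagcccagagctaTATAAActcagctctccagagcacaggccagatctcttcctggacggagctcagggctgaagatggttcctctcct
Thbs2: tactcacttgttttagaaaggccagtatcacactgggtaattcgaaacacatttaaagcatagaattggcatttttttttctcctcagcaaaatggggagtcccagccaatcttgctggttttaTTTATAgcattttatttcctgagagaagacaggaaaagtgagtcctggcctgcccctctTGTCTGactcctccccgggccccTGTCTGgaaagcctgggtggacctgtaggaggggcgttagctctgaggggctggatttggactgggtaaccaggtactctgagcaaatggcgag
CACGTG was in 0 of the 11 windows and in 7.15% of all 32851 mouse windows of that length. CACGCG was in 1 of the 11, that of Tnc shown, at position 20 from the start site, against 9.27% of all windows. TATAAA was in 5 of the 11 windows, of 4 genes, against 13.6% of all windows. The 2 Tnc windows overlap, and the same TATAAA is counted in both. Counted from the start site as 0, TATAAA began at -26 in Postn, at -205 in the Tnc window shown and, on the other strand, at -126 in Thbs2. Only exact matches were marked, so the similar letters tatataag, nearer the start site in the Tnc window, stay in lower case. TGANTCA was in 0 of the 11 and in 7.81% of all windows. CAGACA was in 5 of the 11 windows, of Thbs2, Sparc, Spp1 and Tnc, and in 21.0% of all windows. The overlapping Tnc windows share 1 of its sites. The Tgfbi window held none of the letters searched. These are matches of letters in a short window and are given as a description.

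Thbs1 (Entrez 21825, chromosome 2, 118111876 to 118127133) was the thrombospondin of highest level. It read 144.4, 154.0 and 150.3 FPKM in HEY1-WT KI libraries 1 to 3 and 426.7, 461.3 and 429.7 FPKM in HEY1-3KR KI libraries 1 to 3. The lowest HEY1-3KR KI library was far above the highest HEY1-WT KI library. The means were 149.6 ± 4.83 and 439.2 ± 19.1 FPKM (SD, n = 3 libraries per genotype), with a log2 fold change of 1.55 ± 0.0414 (SE; limma adjusted p = 2.6e-08). In absolute size this log2 fold change exceeded that of 99.2% of tested genes. The level of Thbs1, averaged over both genotypes, stood at the 99.1th percentile of tested genes.

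Thbs2 (Entrez 21826, chromosome 17, 14665500 to 14694262), whose protein forms trimers like thrombospondin-1 and shares its domains, went the other way. Its values were 7.58, 7.42 and 7.81 FPKM in HEY1-WT KI and 3.82, 3.73 and 3.67 FPKM in HEY1-3KR KI. The groups did not overlap, and the HEY1-3KR KI values lay close together, with an SD of 0.0747 FPKM. Thbs2 was 2.03-fold lower by FPKM, and its log2 fold change was -0.86 ± 0.0448 (limma adjusted p = 8.9e-07). Thbs3 (Entrez 21827, chromosome 3, 89215180 to 89226841), of the thrombospondins that form pentamers, was low in every library. It read 2.18, 2.65 and 2.77 FPKM in HEY1-WT KI and 2.4995, 2.2965 and 2.2971 FPKM in HEY1-3KR KI, and the groups overlapped. Its log2 fold change was -0.07, with a 95% interval of -0.24 to 0.10 (limma adjusted p = 0.47), so the data leave room for a difference of that size in either direction.

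Within a library, the ratio of Thbs1 to the other thrombospondins was higher with HEY1-3KR KI. FPKM is per length, so the levels of different genes can be set against each other. Thbs1 exceeded Thbs2 by a ratio of 19.0, 20.8 and 19.2 in the HEY1-WT KI libraries, against 111.8, 123.6 and 117.1 in the HEY1-3KR KI libraries. The ratio of Thbs2 to Thbs3 was 3.03 ± 0.393 in HEY1-WT KI against 1.58 ± 0.0506 in HEY1-3KR KI (SD, n = 3). In both genotypes the order of the 3 levels was Thbs1, Thbs2 and Thbs3, and every library kept it.

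**Figure D1:**
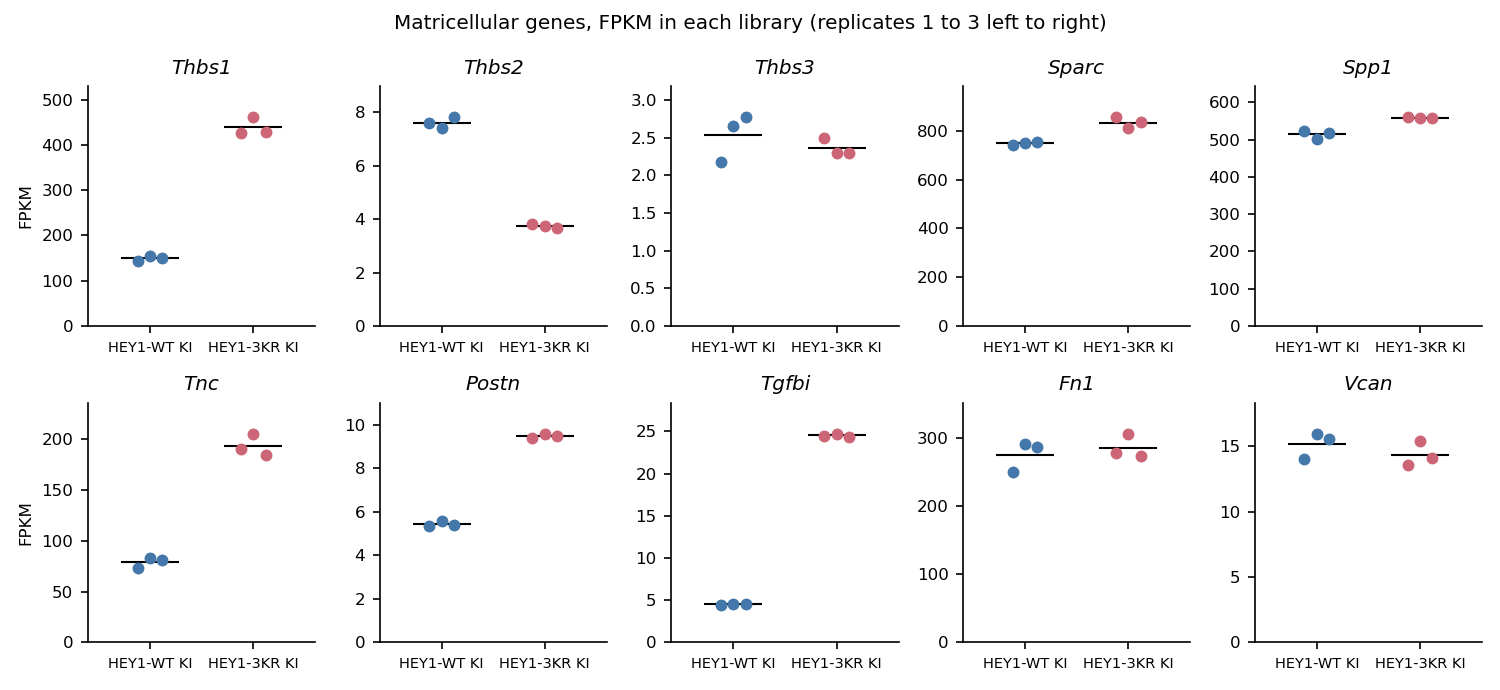
FPKM of each of the 10 genes (vertical axis from 0, a scale for each gene) in the 3 HEY1-WT KI libraries (blue) and the 3 HEY1-3KR KI libraries (red), with the mean as a black line. Thbs1, Tnc, Postn and Tgfbi separate widely upwards and Thbs2 downwards, Sparc and Spp1 separate by a small step, and Thbs3, Fn1 and Vcan overlap.

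Tgfbi (Entrez 21810, chromosome 13, 56609586 to 56639359) encodes a matrix protein of fasciclin domains that is named for its induction by TGF-beta. It had the largest change of the 10 genes. It read 4.422, 4.508 and 4.601 FPKM in HEY1-WT KI and 24.5, 24.7 and 24.3 FPKM in HEY1-3KR KI. The values within a genotype lay within a few percent of each other, with coefficients of variation of 1.99% and 0.744%, and the groups were far apart. The log2 fold change was 2.21 ± 0.038 (limma adjusted p = 4.4e-09), larger in size than in 99.7% of tested genes.

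Postn (Entrez 50706, chromosome 3, 54359267 to 54391041), which encodes periostin, the closest relative of the Tgfbi product, also rose, by less. It read 5.34, 5.58 and 5.40 FPKM in HEY1-WT KI and 9.41, 9.59 and 9.47 FPKM in HEY1-3KR KI, a log2 fold change of 0.70 ± 0.0413 (limma adjusted p = 1.8e-06). The 2 fasciclin-domain genes changed order. The ratio of Tgfbi to Postn was 0.829 ± 0.0217 in HEY1-WT KI, where Postn was the higher in each library, and 2.58 ± 0.018 in HEY1-3KR KI (SD, n = 3), where Tgfbi was.

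Tnc (Entrez 21923, chromosome 4, 63959785 to 64047015) encodes tenascin-C, a large hexameric protein that loosens the adhesion of cells to fibronectin. It read 73.5, 83.1 and 81.0 FPKM in HEY1-WT KI and 189.9, 205.2 and 184.7 FPKM in HEY1-3KR KI. All 3 HEY1-3KR KI libraries were above all 3 HEY1-WT KI libraries, with a log2 fold change of 1.28 ± 0.0555 (limma adjusted p = 3.4e-07). The spread within a genotype was wider than for Tgfbi or Postn, at coefficients of variation of 6.34% and 5.53%.

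Sparc and Spp1 were the most abundant of the 10 genes, at the 99.8th and 99.6th percentiles of level among tested genes, and their differences were small. Sparc (Entrez 20692, chromosome 11, 55394159 to 55420080) encodes a collagen-binding protein that basement membranes contain. It read 740.4, 749.4 and 755.6 FPKM in HEY1-WT KI and 856.0, 812.6 and 834.8 FPKM in HEY1-3KR KI. The groups did not overlap, and the log2 fold change was 0.16 ± 0.0327 (limma adjusted p = 0.0035). After quantile normalization between libraries it was 0.06 and did not pass (limma adjusted p = 0.11), so the call depended on the scaling. Spp1 (Entrez 20750, chromosome 5, 104435111 to 104441053) encodes osteopontin, an integrin ligand that macrophages also secrete. It read 524.3, 502.9 and 519.2 FPKM in HEY1-WT KI and 560.1, 558.8 and 556.9 FPKM in HEY1-3KR KI, without overlap. Its log2 fold change was 0.12 ± 0.0308 (limma adjusted p = 0.012), and in absolute size 36.7% of tested genes had a smaller one. The ratio of Sparc to Spp1 was 1.45 ± 0.0391 in HEY1-WT KI against 1.49 ± 0.0373 in HEY1-3KR KI (SD, n = 3).

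Fn1 and Vcan did not pass. Fn1 (Entrez 14268, chromosome 1, 71585473 to 71653280) encodes fibronectin, the main provisional matrix protein to which integrin alpha5-beta1 binds. It read 249.95, 290.71 and 286.17 FPKM in HEY1-WT KI and 277.9, 306.0 and 273.1 FPKM in HEY1-3KR KI, and the groups overlapped. Its log2 fold change was 0.05, with a 95% interval of -0.10 to 0.20 (limma adjusted p = 0.52), and it was -0.02 without HEY1-WT KI library 1. Vcan (Entrez 13003, chromosome 13, 89655309 to 89743027) encodes versican, a large hyaluronan-binding proteoglycan. It read 14.03, 15.97 and 15.6 FPKM in HEY1-WT KI and 13.6, 15.4 and 14.1 FPKM in HEY1-3KR KI, also with overlap. Its log2 fold change was -0.08, with a 95% interval of -0.22 to 0.06 (limma adjusted p = 0.33).

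**Figure D2:**
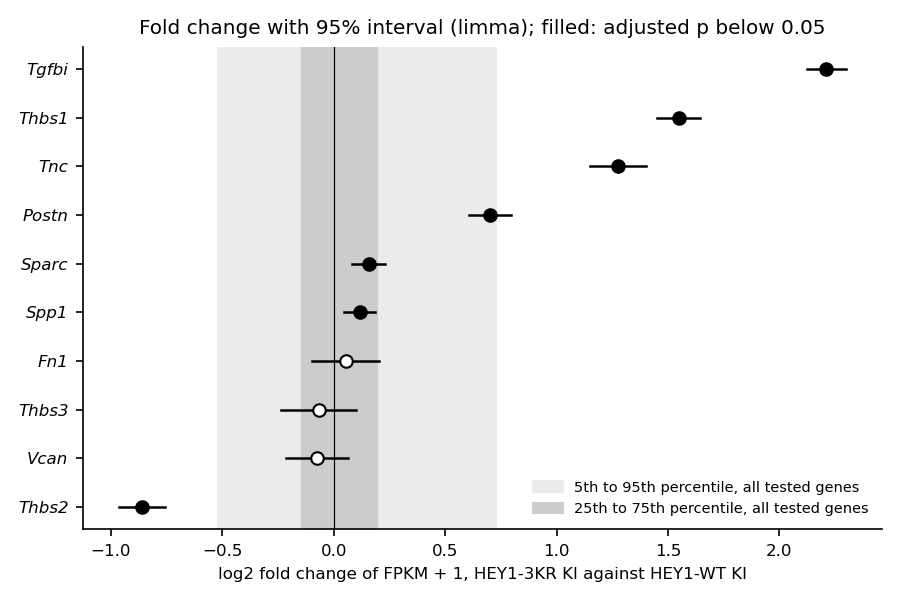
Log2 fold change of FPKM + 1, HEY1-3KR KI against HEY1-WT KI (horizontal axis), for each gene with its 95% interval from limma. Filled points passed at an adjusted p below 0.05, and grey bands hold the middle of all 11432 tested genes. Tgfbi, at 2.21, Thbs1, at 1.55, and Tnc, at 1.28, lie right of both bands, Thbs2, at -0.86, lies left of them, and Postn, at 0.70, lies inside the wider band, which ends at 0.73.

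As a set, the 10 genes took 0.684% ± 0.0176 of all FPKM in HEY1-WT KI against 0.900% ± 0.0246 in HEY1-3KR KI (SD, n = 3). Thbs1 and Tnc held most of that difference. Without them the share was 0.597% ± 0.0133 and 0.659% ± 0.0107. Sparc stayed the most abundant of the 10, at 41.5% ± 0.363 of their summed FPKM in HEY1-WT KI against 35.3% ± 1.247 in HEY1-3KR KI. Thbs1 went from 8.29% ± 0.164 to 18.6% ± 0.6 of the sum. The order of levels by mean FPKM in HEY1-WT KI was Sparc, Spp1, Fn1, Thbs1, Tnc, Vcan, Thbs2, Postn, Tgfbi and Thbs3. In HEY1-3KR KI, Thbs1 stood above Fn1, Tgfbi above Vcan, Postn and Thbs2, and Postn above Thbs2. No neighbours in the HEY1-WT KI order overlapped in their values, and the same held in HEY1-3KR KI.

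Libraries of 1 genotype differed among themselves, with Fn1, Vcan and Tnc deviating together. Fn1, Vcan and Tnc have longest annotated transcripts of 8315, 12427 and 7106 nt, against a median of 3376 nt over tested genes. In HEY1-WT KI library 1 these genes lay below their genotype mean by -0.137, -0.106 and -0.104 on the log2 scale. In HEY1-3KR KI library 2 they lay above it, by 0.101, 0.096 and 0.0876. The median deviation of the 960 tested genes with transcripts of at least 7000 nt was -0.0522 and 0.0597 in those libraries, and that of the 10279 other genes with an annotated length 0.005 and -0.0043. Sparc and Spp1, with transcripts of 2300 and 1507 nt, did not follow that order. Among genes of intermediate length, Thbs3, of 4034 nt, deviated by -0.151 in HEY1-WT KI library 1, more than Fn1, and by -0.0288 in HEY1-3KR KI library 2, and Thbs2, of 5895 nt, by -0.00333 and -0.0019. Thbs1, of 5848 nt, deviated by -0.0495 and 0.0713, and Postn, of 5223 nt, by -0.0221 and 0.0139. Between genotypes the median log2 fold change was 0.03 for the long transcripts and 0.02 for the others. The part of transcript length in the spread of Fn1, Vcan and Tnc was not tested.

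**Figure D3:**
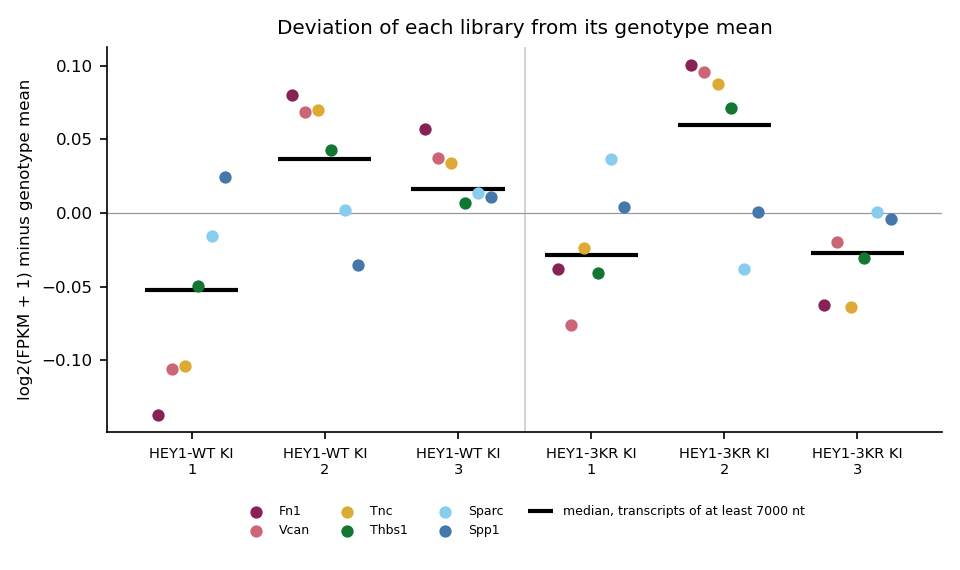
Deviation of 6 of the genes from their genotype mean, in log2(FPKM + 1) (vertical axis), in each library. Black lines are the median of 960 genes with transcripts of at least 7000 nt. Each of Fn1, Vcan and Tnc has its lowest value in HEY1-WT KI library 1, where the black line is at -0.0522, and its highest in HEY1-3KR KI library 2, where the line is at 0.0597.

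Genes of most similar pattern were taken as those of highest Pearson r in log2(FPKM + 1) over the 6 libraries. For Thbs1 they were Vwf, which encodes von Willebrand factor, Nt5e, an ecto-nucleotidase, and Col5a1, a fibrillar collagen chain, with r rounding to 1.00 for each. Such values were common, since 1897 of 11431 genes reached an r of at least 0.95 and the 6 points form 2 groups. For Fn1 they were Med12 (r = 0.991), Nav2 (r = 0.988) and Trrap (r = 0.987), and 34 genes reached 0.95. Their longest transcripts were 6940, 11317 and 12479 nt. Libraries of a group share their genotype, and the correlations are given as a description.

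Other matricellular genes were split in direction. Of 31 listed, 16 passed the filter on low values (at least 1 FPKM in at least 3 libraries). Of these 6 rose, 7 fell and 3 did not pass, with a median log2 fold change of -0.14. The shares over all tested genes were 29.9% higher and 23.4% lower. Sparcl1, the closest relative of Sparc, rose 4.003-fold, from 34.6 ± 0.962 to 138.7 ± 9.02 FPKM (limma adjusted p = 1.8e-08). The other rises were smaller. Fbln5, an elastic fibre assembly protein, rose 1.33-fold, Fbln1 1.24-fold, Spock2, a relative of Sparc with glycosaminoglycan chains, 1.43-fold from a low level, and Ccn2, connective tissue growth factor, 1.12-fold, while Ccn1 went from 132.3 to 146.1 FPKM. Fbln2, a fibulin of vessel walls, fell from 690.5 ± 24.7 to 394.6 ± 11.6 FPKM, 1.75-fold lower. Ccn3 was 2.20-fold lower, the fibulin Efemp1 1.69-fold and the milk fat globule protein Mfge8, a bridge for apoptotic cells, 1.63-fold.

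Most tested receptors of the 10 proteins differed by less than 1.5-fold by FPKM, as did most tested genes, of which 16.1% differed by at least that. Of 21 listed, 18 were tested, 10 rose, 4 fell and 4 did not pass, with a median log2 fold change of 0.17. Among all tested genes 29.9% rose and 23.4% fell. Cd36, through which thrombospondin-1 acts on endothelial cells, rose from 27.2 ± 0.389 to 34.1 ± 1.84 FPKM (limma adjusted p = 3.6e-04), and Cd47, its other main receptor, fell from 13.8 ± 0.18 to 12.5 ± 0.476 FPKM (limma adjusted p = 0.025). Stab1, a scavenger receptor that takes up the SPARC protein, rose 3.14-fold, from 36.2 ± 0.794 to 113.8 ± 2.67 FPKM, and macrophages express it too. The integrin subunits Itga4, Itga8 and Itga9, whose integrins bind osteopontin, tenascin-C or fibronectin, rose 2.01-fold, 1.81-fold and 1.52-fold from low levels, and Itgb5 rose 1.48-fold. Itgav was 1.16-fold lower, Lrp1, the endocytic receptor of thrombospondins, 1.205-fold and Cacna2d1, a thrombospondin receptor of neurons, 1.16-fold. The count of falls was 2 without HEY1-WT KI library 1 or without library 3, and the call of Cd47 was lost without HEY1-WT KI library 1, 2 or 3 and without HEY1-3KR KI library 2 (limma adjusted p from 0.0528 to 0.0735). The call of Cacna2d1 was lost under 6 of 14 alternatives.

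Enzymes that cut or assemble these proteins changed in both directions. Of 21 listed, 20 had an entry and 15 were tested. Of these 8 rose, 6 fell and Mmp12 did not pass, with a median log2 fold change of 0.71. The background was 29.9% of tested genes higher and 23.4% lower. Has2, the main synthase of the hyaluronan that versican binds, rose 8.06-fold, from 1.52 ± 0.0438 to 12.3 ± 0.598 FPKM (limma adjusted p = 9.6e-09), while Vcan itself did not pass. The versican-cutting proteases Adamts4 and Adamts5 went opposite ways, from 4.35 ± 0.235 to 8.13 ± 0.537 FPKM and from 3.72 ± 0.141 to 2.14 ± 0.363 FPKM. Mmp3 rose 4.01-fold and Htra3 3.60-fold, and Mmp9, near 0 in HEY1-WT KI at 0.102 ± 0.0242 FPKM, averaged 6.09 ± 0.326 FPKM in HEY1-3KR KI. Htra1 was 1.88-fold lower, Mmp2 1.87-fold, Bmp1, the procollagen C-proteinase, 1.63-fold and the cysteine protease Ctsk 1.55-fold.

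TGF-beta ligands, receptors and SMADs showed smaller differences than Tgfbi. All 18 listed genes were tested, 8 rose, 2 fell and 8 did not pass, with a median log2 fold change of 0.10. These counts stand beside 53.2% of all tested genes called, 29.9% higher and 23.4% lower. The ligand Tgfb1 rose 1.36-fold, from 26.4 ± 0.661 to 35.8 ± 1.24 FPKM, its receptor Tgfbr1 1.44-fold and the co-receptor Eng 1.202-fold. Among the latent TGF-beta binding proteins, Ltbp2 rose 1.70-fold and Ltbp4 1.27-fold, and Ltbp3 was 1.56-fold lower. Smad7, an inhibitor of the pathway, fell from 3.41 ± 0.116 to 2.95 ± 0.0784 FPKM (limma adjusted p = 0.026), a call not kept when HEY1-WT KI library 1 or 3 was left out, nor without HEY1-3KR KI library 2 or 3 (limma adjusted p from 0.0607 to 0.0773), which left 1 fall.

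**Figure D4:**
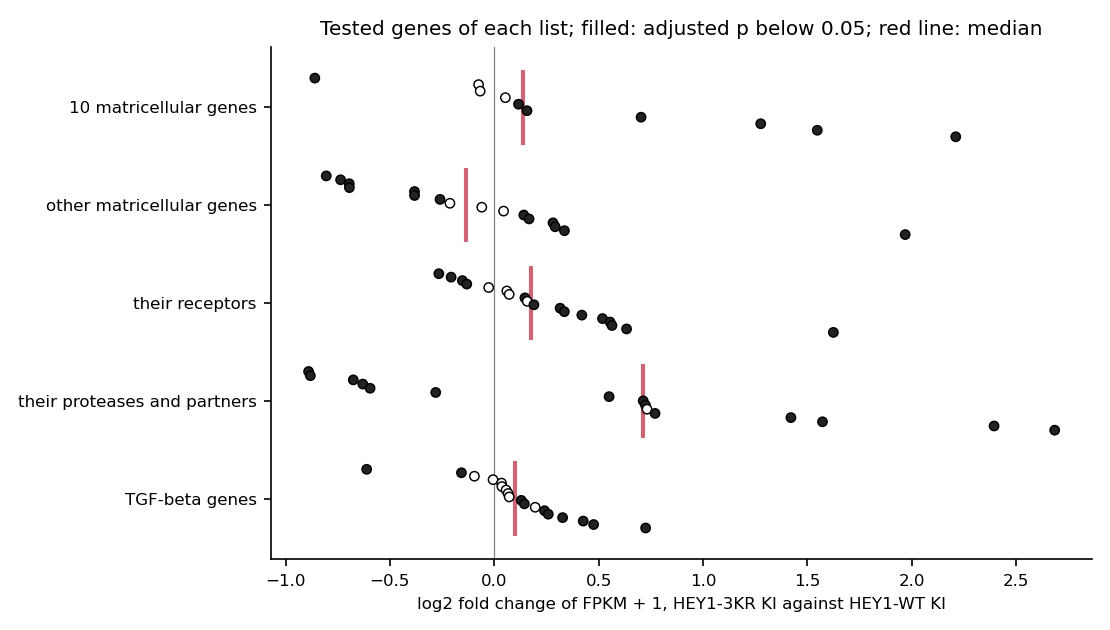
Log2 fold change of FPKM + 1, HEY1-3KR KI against HEY1-WT KI (horizontal axis), of each tested gene in 5 lists. Filled points passed at an adjusted p below 0.05 and red lines are list medians, at 0.14 for the 10 genes, -0.14 for other matricellular genes, 0.17 for receptors, 0.71 for proteases and partners and 0.10 for TGF-beta genes.

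Fibroblasts, smooth muscle cells, macrophages and epithelium also express several of the 10 genes, and markers of all these cells were present in the libraries. The summed markers of macrophages, fibroblasts and epithelium were higher in HEY1-3KR KI without overlap, and those of smooth muscle overlapped. Endothelial markers were detected, at a lower sum than those of macrophages, smooth muscle or fibroblasts. A sum can rest largely on a single abundant gene, such as Lyz2 for macrophages, which averaged 3137.5 FPKM in HEY1-WT KI. Macrophage markers did not exceed endothelial ones through Lyz2 alone. Marco averaged 396.1 and Cd68 280.4 FPKM in HEY1-WT KI, each above the summed endothelial markers there. The remaining macrophage markers were each below that sum. In bulk RNA the order of the sums does not rank the cell types by number. Cdh5, VE-cadherin, averaged 77.7 ± 4.44 FPKM in HEY1-WT KI against 132.5 ± 2.89 in HEY1-3KR KI, Cldn5 33.3 ± 1.255 and 66.5 ± 1.35, and Pecam1 27.4 ± 0.543 and 43.2 ± 1.05. The 14 endothelial markers summed to 230.0 to 240.4 FPKM in HEY1-WT KI libraries and 398.0 to 407.1 FPKM in HEY1-3KR KI libraries. Of the 14, 13 rose, against 29.9% of all tested genes. None of the 69 markers named in 6 lists was at 0 in all libraries.

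Markers of macrophages, fibroblasts and smooth muscle summed to more than that. The 15 macrophage and monocyte markers summed to 4372 to 4465 FPKM in HEY1-WT KI and 5872 to 6117 FPKM in HEY1-3KR KI. All 15 had their lowest HEY1-3KR KI value above their highest HEY1-WT KI value, as did 34.1% of all tested genes. Lyz2, Marco and C1qb were highest by mean over all 6 libraries. The 12 fibroblast markers, Fbln1 among them, summed to 589.3 to 595.9 FPKM in HEY1-WT KI and 1134 to 1153 FPKM in HEY1-3KR KI, with 11 of 12 higher without overlap, and Col1a1, Col1a2 and Col3a1 were highest by mean over all 6 libraries. The 12 epithelial markers summed to 122.3 to 228.6 and 435.9 to 648.5 FPKM, with 10 of 12 higher without overlap. By mean over all 6 libraries Scgb1a1, Sftpc and Krt8 were highest, and Scgb1a1 itself overlapped between genotypes and did not pass (limma adjusted p = 0.057).

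The smooth muscle and pericyte list did not separate the genotypes. Its 10 markers summed to 1063 to 1086 and 1066 to 1100 FPKM, with 1 higher and 4 lower without overlap. Over all tested genes, 34.1% were higher and 27.0% lower without overlap. Acta2, Tagln and Des were highest in the list by the same mean. The 6 mesothelial markers summed to 157.8 to 158.5 FPKM in HEY1-WT KI and 104.0 to 106.1 FPKM in HEY1-3KR KI, of which Msln held most, with 4 higher and 2 lower without overlap. As shares of summed FPKM, 5 of the 6 lists gave the smallest p that 3 against 3 libraries allow (exact two-sided permutation p = 0.1, adjusted p = 0.12 over the 6 lists) and the smooth muscle list gave p = 0.2. The part of these cells in the levels and differences of the 10 genes was not tested.

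**Figure D5:**
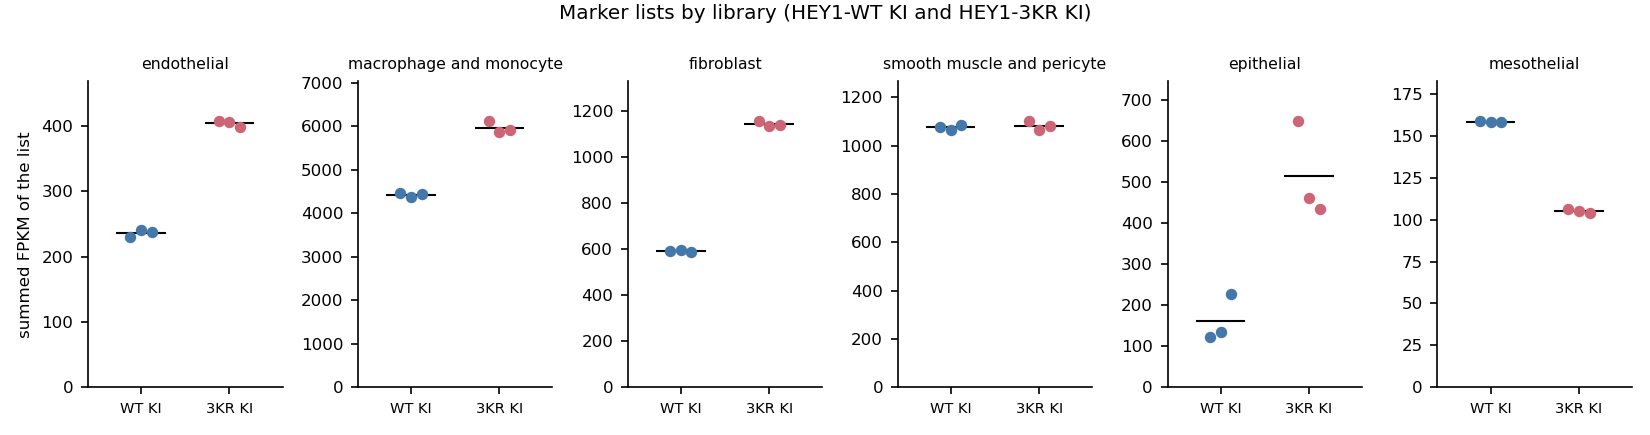
Summed FPKM of 6 lists of cell type markers (vertical axes from 0, a scale for each list) in the 3 HEY1-WT KI libraries (blue) and the 3 HEY1-3KR KI libraries (red), with the mean as a black line. Endothelial, macrophage, fibroblast and epithelial sums were higher in each HEY1-3KR KI library, the mesothelial sum was lower, and the smooth muscle sums overlapped.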

How the data were processed

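The authors deposited FPKM for 17463 gene entries, with 1 column for each of 3 HEY1-WT KI and 3 HEY1-3KR KI libraries, per the file headers. Per the submitters' processing notes, StringTie 1.3.3b, HISAT2 2.1.0, SAMtools 1.9, FastQC 0.19.7 and the build mm10 were used. For annotation, strand and shared reads, nothing is given in the sources used here.

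Read totals are not in the table. Steps between low values of 2396 single-transcript genes, searched from 10000000 to 30000000 fragments, put the libraries at about 16600000 to 20400000. Between 27.3% and 40.7% of low values lay within 0.1 of a whole step, against 20.0% if evenly spread. Each depth was picked from these same values as the best fit to whole steps. A share above 20.0% was therefore to be expected and does not test the depth. This depth is approximate, and no count test was run.

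Genes reaching 1 FPKM in 3 or more libraries (11432, all 10 described genes among them) were tested on log2(FPKM + 1) by limma 3.58.1 in R 4.3.3, tested on simulated data first, with a variance trend, no covariates, two-sided, and Benjamini-Hochberg adjustment over all of them at 0.05. Marker shares were compared by exact permutation. Libraries of a genotype correlated at 0.994 to 0.996 and of different genotypes at 0.960 to 0.964, with no library apart. Deviations of same-numbered libraries correlated at -0.191, 0.254 and -0.272, so numbers were not taken as pairs. The genes and lists were chosen with earlier results of these data known. Named beside the 10 genes are up to 5 called genes per list and direction by log2 fold change, the 3 most abundant of each marker list, and the 3 genes most like Thbs1 and Fn1. One called gene of the matricellular list is not reported here. Ccn1, Cd36 and Mmp12 were named after their values were seen. Alternatives were other pseudocounts, filters, scalings and variance models, a replicate block, and leaving out each library. Tables and plots used matplotlib 3.10.9, scipy 1.17.1, numpy 2.4.6, pandas 2.3.3 and Python 3.11.15. Coordinates are RefSeq GRCm38.p6, the assembly mm10 stands for, and transcript lengths GENCODE M21.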

Additional observations from a re-analysis of the deposited data

How the results depend on the processing

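Over 14 alternatives and the 10 genes, 138 of 140 log2 fold changes kept their direction and side of the threshold. The exceptions were Sparc, at 0.06 and not called after quantile normalization, and Fn1, which turned to -0.0157 without HEY1-WT KI library 1, ranged from there to 0.0929 when single libraries were left out, and was not called in any setting. The cause was not tested. The log2 fold change of Thbs1 ranged from 1.51 to 1.57, that of Tgfbi from 2.16 to 2.42, that of Tnc from 1.22 to 1.32, that of Postn from 0.66 to 0.79 and that of Thbs2 from -1.005 to -0.84. Spp1 was called in every setting, with an adjusted p of up to 0.0478. With the replicate block, 6 of the 10 genes were higher and 1 lower, as without it, and 3415 of all tested genes were higher and 2719 lower, against 3414 and 2670. The share of higher calls moved with the scaling, with 3016 and 3096 genes called up and down by median-of-ratios scaling, and 2911 and 3290 by quantile normalization. With no filter on low values 12 other matricellular genes were higher in place of 6, since more genes were tested. In that setting 3885 of all 17171 genes were higher. Leaving out a library gave 2 to 3 falls among receptors, against 4, and 1 to 2 among TGF-beta genes, against 2. Depth is approximate, which limits what can be said of genes under 1 FPKM.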

Other observations

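Of the 31 other matricellular genes listed, 15 lay below the filter on low values. When every gene above 0 in a library was fitted, 6 of these were higher in HEY1-3KR KI, 0 lower, 8 did not pass and Mepe was at 0 in all libraries. Over all 17171 genes in that fit, 3885 were higher and 2858 lower. These totals include the 11432 genes that passed the filter, of which 3414 were higher and 2670 lower in the main fit. They are therefore not a background of low genes alone. The values of the 15 genes were seen before they were named. Ibsp and Dmp1 encode bone sialoprotein and dentin matrix protein, relatives of osteopontin known from bone and tooth. Ibsp was listed at 0, 0.11 and 0.0688 FPKM in HEY1-WT KI and at 0.717, 0.569 and 0.618 FPKM in HEY1-3KR KI. Dmp1 read 0.279, 0.185 and 0.218 FPKM and 0.842, 0.763 and 0.937 FPKM (limma adjusted p = 1.4e-04 for both with no filter). The groups did not overlap in either gene, and all of these values are below 1 FPKM, where few fragments stand behind each. Tnn, tenascin-N, averaged 0.0525 ± 0.0206 and 0.264 ± 0.0495 FPKM (SD, n = 3), and Tnr, tenascin-R, 0.0436 ± 0.0129 and 0.0131 ± 0.00645 FPKM without passing. Smoc2, Matn4 and Edil3 were the other genes that were higher.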
